A study of Mus musculus with 9 samples.

Results

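miR-21a is a microRNA (miRNA), a short RNA that guides the silencing complex to messenger RNAs. Its rows were taken from a table of small RNA counts in B16F1 cells, an established melanoma line derived from the skin of a C57BL/6J mouse. Every row filed under the hairpin mmu-mir-21a was used, together with the rows that carry a mature miR-21a name, which gave 24 of the 6414 rows. Of these, 21 were sequence tags of the 5′ arm, 1 was a tag of the 3′ arm and 2 were the mature names miR-21a-5p and miR-21a-3p, which stood at 0 in every library. A tag is 1 read sequence with its count, and no miR-21a tag was listed under another hairpin.

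The 9 libraries came from 3 control cultures without exposure, 3 cultures exposed to 5 mM L-Tyr and 3 exposed to 2.5 µg/mL BrdU (5-Brd-2′-dU), all of the same line and all grown for 72 h. L-Tyr is L-tyrosine, the amino acid from which melanin is made, and BrdU is a thymidine analogue that is built into DNA. The study asked which miRNAs accompany altered pigmentation together with reduced proliferation of these cells. It reported fewer cells after both exposures and features of senescence after BrdU. The 3 samples of a group were described as independent replicates of 1 cell line, and the control cultures received neither agent.

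The miR-21 hairpin is cut by Drosha and Dicer into a duplex, of which the 5′ arm (miR-21a-5p) is usually loaded into Argonaute and the 3′ arm is mostly discarded. Bases 2 to 8 of the mature strand, the seed, pair with target messages, among which Pdcd4, a growth restraint, is well known. miR-21 is raised in many tumours and is transcribed in response to AP-1 and STAT3. Its 3′ end is also known to be extended by single bases and trimmed again.

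On the mm9 assembly (NCBIM37) the hairpin lay on the minus strand at chr11:86397569-86397660, with miR-21a-5p at chr11:86397622-86397643 and miR-21a-3p at chr11:86397584-86397605. The annotation placed it inside the last exon of Vmp1, a gene for a membrane protein of autophagy, within the 3′ untranslated part of that exon (chr11:86397367-86398812). Of the 22 tags, 17 matched the genome exactly at this place alone. The 16-nt tag of bases 7 to 22 had 2 exact matches, 1 of them here, and 4 tags had none because their last bases are not in the hairpin.

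The mature sequences below, from RefSeq (GRCm38.p6), are shown with the seed in capitals, because the tags are read against them and because miR-21b and miR-21c are the relatives with which miR-21a could be confused.
miR-21a-5p: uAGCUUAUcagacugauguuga
miR-21a-3p: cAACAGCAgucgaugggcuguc
miR-21c: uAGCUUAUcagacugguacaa
miR-21b: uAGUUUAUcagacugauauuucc
miR-21c shares the seed of miR-21a-5p and miR-21b does not. Both names were listed at 0 in all libraries, as were miR-590-5p and miR-590-3p.

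No tag in the table was longer than 20 nt, whereas miR-21a-5p has 22 nt, so that no tag held the whole mature strand. The most abundant tag of each start position is shown here as DNA letters, with those seed bases that it still held in capitals, because the tags differ mainly in how much of the 5′ end is present.
bases 1 to 20: tAGCTTATcagactgatgtt
bases 2 to 21: AGCTTATcagactgatgttg
bases 3 to 22: GCTTATcagactgatgttga
bases 4 to 23: CTTATcagactgatgttgac
bases 5 to 23: TTATcagactgatgttgac
bases 6 to 23: TATcagactgatgttgac
bases 7 to 23: ATcagactgatgttgac
Bases are counted from the 5′ end of miR-21a-5p, and base 23 is the first hairpin base after the mature end.

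The deposited libraries held between 144452 and 424122 counts, so that 3 counts, the upper limit that a count of 0 allows, were worth between 7.07 and 20.8 CPM, the usual scaling of counts to a common library total. Library 3 of BrdU stood apart from the others in miRNAs that mark other cell types. There, 5 of the 6 listed fibroblast or smooth muscle names had counts and their sum was 274251 CPM after scaling by TMM, a normalization that balances libraries on most of their features, against 1624 to 7341 in the other 8 libraries. Nearly all of this sum was mir-143, at 269389 CPM, followed by mir-145a at 2444 CPM. The erythroid list (4 of 5 names with counts there) was at 6705 CPM there against at most 516.7, with 1462 counts of mir-451a against at most 65. The leukocyte list (mir-142a and mir-223 with counts there, mir-150 at 0) was at 1536 against at most 70.0. The endothelial list (mir-126a) was at 7416 against 61.3 to 270.9. The lists also held mir-142, mir-145, mir-126 and mir-486, other names of listed hairpins, which had no counts in any library. The liver miRNA mir-122 had 20 counts in L-Tyr 2, 6 in BrdU 3 and 0 elsewhere. The melanocytic list (mir-211, which lies in the melanocyte gene Trpm1, and mir-204) was present everywhere, at 10197 to 16462 in control, 22072 to 27215 in L-Tyr and 7036 to 7533 in BrdU libraries. The main results that rest on BrdU 3 are given with and without it, and the part of other cell types in them was not tested.

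miR-21a-5p was higher after BrdU than in both other groups, while L-Tyr and control libraries overlapped. The sum of its tags was 388, 936 and 143 counts in control libraries 1 to 3. In L-Tyr libraries it was 340, 648 and 378 counts. In BrdU libraries it was 994, 3005 and 3133 counts, so that 9965 counts were available in all. As a share of each library this was 0.0542% to 0.221% in control, 0.217% to 0.272% in L-Tyr and 0.58% to 0.822% in BrdU libraries, and the BrdU range did not meet either of the others.

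On the TMM scale the control libraries stood at 1825, 2096 and 625.9 CPM, a mean of 1516 ± 782.3 (SD, n = 3). The L-Tyr libraries stood at 2307, 2520 and 1943 CPM, a mean of 2257 ± 291.4 (SD, n = 3). The BrdU libraries stood at 5706, 6840 and 11429 CPM, a mean of 7992 ± 3030 (SD, n = 3). Control 3 was the lowest of the 9 libraries and BrdU 3 the highest, and BrdU 1 and 2 alone were still above all 6 libraries of the other groups. By mean level miR-21a-5p, in CPM not divided by length, was the 85th of 409 arms with counts in control, the 73rd of 356 in L-Tyr and the 31st of 444 in BrdU libraries. In bulk RNA, fewer cells that express a miRNA and less of it per cell cannot be told apart.

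**Figure D1:**
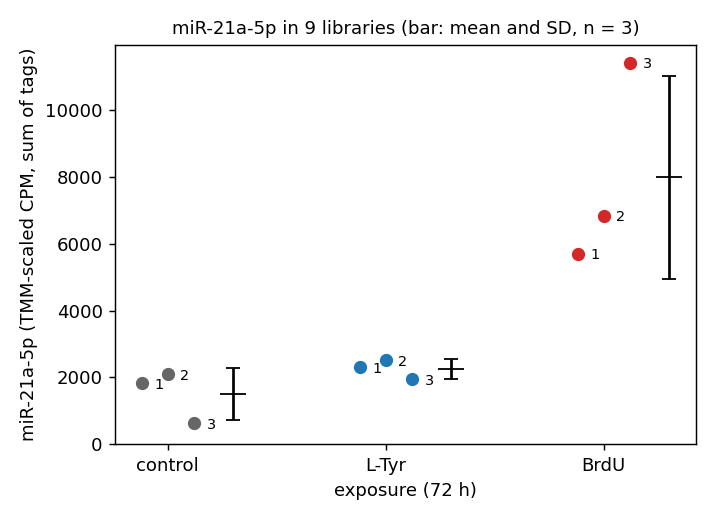
miR-21a-5p, as the sum of its 5p tags in TMM-scaled CPM (vertical axis), in the 3 libraries of each exposure (points, numbered by replicate) with the group mean and SD (bars, n = 3). The BrdU libraries lie between 5706 and 11429 CPM, above all control and L-Tyr libraries, whose highest value is 2520.

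For the comparison across features, the counts of each hairpin were summed by arm and fitted with the quasi-likelihood test of edgeR. The p-values were adjusted over all arms tested (Benjamini-Hochberg), and an arm was called at an adjusted p under 0.05. BrdU relative to control gave a log2 fold change of 2.34 (SE 0.476, 95% interval 1.23 to 3.45), a 5.05-fold higher level, with an adjusted p of 0.0458. In that comparison 9 of 289 arms were called (3.11%), 8 of them higher (2.77%), and miR-21a-5p was 9th by p and 22nd by fold change, where 44.6% of arms had a log2 fold change above 0. All 3 BrdU libraries were above all 3 controls, as for 15.6% of the arms tested, and the exact permutation test (two-sided) gave p = 0.1, the smallest that 3 against 3 libraries allow. The call lies close to the threshold: 9 of the 17 alternative settings kept it and their adjusted p ranged from 6.36e-07 to 0.189. Without BrdU 3 the log2 fold change was 2.06 (SE 0.486) and edgeR's adjusted p was 0.0734.

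BrdU relative to L-Tyr gave a log2 fold change of 1.90 (SE 0.302, 95% interval 1.20 to 2.59), a 3.72-fold higher level, with an adjusted p of 0.0156 by edgeR's quasi-likelihood test. Here 6 of 256 arms were called (2.34%), 3 of them higher (1.17%), and miR-21a-5p was 4th by p and 18th by fold change, where 57.0% of arms had a log2 fold change above 0. The groups did not overlap, which held for 11.7% of arms in this direction (exact permutation p = 0.1), and the call remained without BrdU 3 at a log2 fold change of 1.50 (SE 0.253, adjusted p = 0.0327 by edgeR). Over the 17 alternatives edgeR and DESeq2 gave adjusted p-values from 2.29e-06 to 0.206, with 11 calls.

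L-Tyr relative to control gave a log2 fold change of 0.48 (SE 0.414, 95% interval -0.46 to 1.42) with an adjusted p of 0.724 by edgeR's quasi-likelihood test, while 7 of 264 arms were called (2.65%), 5 of them higher (1.89%), and 44.7% had a log2 fold change above 0. The L-Tyr libraries lay within or just above the control range (10.2% of arms had all L-Tyr libraries above all controls), and the exact permutation p was 0.2. The interval reaches from a lower to a clearly higher level, so that neither was shown. The comparisons with control share the same 3 control libraries, and the pairs with BrdU share its 3 libraries.

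Among the tags that passed the filter on low counts, levels after BrdU were higher across the arm. Tags were fitted among all entries of the table. The filter left 12 miR-21a tags for BrdU relative to control, 11 for BrdU relative to L-Tyr and 9 for L-Tyr relative to control. A tag could pass through its BrdU counts alone. An example is that of bases 6 to 22, with 3, 7 and 5 counts in control and 10, 28 and 94 in BrdU libraries. For such tags a fold change above 0 was favoured in advance, so the numbers of tags below describe the arm and are no separate support. For BrdU relative to control all 12 tags had a log2 fold change above 0 (49.8% of all entries did), with a median of 2.25 and a range of 1.23 to 3.11. An unadjusted p under 0.05 was reached by 8 of the 12 (10.5% of entries), while no tag, and 0.0% of all entries, passed the adjusted threshold with edgeR. DESeq2's Wald test called 3 miR-21a tags, against 37 of the 4190 entries it tested (0.883%). Without BrdU 3 all 12 tags were still above 0, with a median of 1.78 and a range of 0.25 to 2.52, and 5 had an unadjusted p under 0.05. In 10 of the 12 tags all BrdU libraries were above all control libraries, against 9.95% of entries. The tags come from 1 miRNA in the same libraries and are not separate replicates.

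The most abundant tag covered bases 4 to 23 and held 21.7% of the arm (2167 counts). It had 80, 185 and 36 counts in control, 87, 180 and 107 in L-Tyr and 319, 740 and 433 in BrdU libraries. Its log2 fold change for BrdU relative to control was 2.38 (SE 0.445), with an unadjusted p of 0.000279 and an adjusted p of 0.0831 by edgeR's quasi-likelihood test. Relative to L-Tyr the log2 fold change was 1.54 (SE 0.355) with an adjusted p of 0.138 by edgeR, and for L-Tyr relative to control it was 0.84 (SE 0.540) with an adjusted p of 0.758. After scaling to library size, BrdU 3 (1577 CPM) was the lowest of the BrdU libraries for this tag, the reverse of its place for the arm sum.

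The tag of bases 5 to 23, the next in abundance with 17.9% (1787 counts), had 50, 230 and 50 counts in control, 69, 74 and 93 in L-Tyr and 274, 673 and 274 in BrdU libraries. Its log2 fold change was 2.04 (SE 0.470) for BrdU relative to control and 1.81 (SE 0.437) relative to L-Tyr, with adjusted p-values of 0.127 and 0.138 by edgeR. The tag of bases 3 to 22, which ends exactly at the mature end (13.2%, 1320 counts), had 66, 131 and 13 counts in control, 58, 149 and 76 in L-Tyr and 124, 378 and 325 in BrdU libraries. This was a log2 fold change of 2.02 (SE 0.632) and 1.09 (SE 0.475) for the same comparisons. These 3 tags start within the seed and lack its first bases.

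The tags that hold the whole seed were less even among the BrdU libraries. The tag of bases 1 to 20, the leading one, had 3, 7 and 1 counts in control, 1, 2 and 4 in L-Tyr and 2, 55 and 715 in BrdU libraries, so that 1 library held nearly all of its 790 counts. It was too sparse outside BrdU 3 to enter the edgeR fit. The tag of bases 2 to 21, which also holds the seed, had 6, 32 and 10, then 0, 12 and 0, then 20, 63 and 244 counts, and its log2 fold change for BrdU relative to control was 2.94 (SE 0.978, adjusted p = 0.261 by edgeR) with BrdU 3 and 1.38 (SE 1.23, adjusted p = 0.870) without it.

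The other 9 tags with at least 1% of the arm were higher in BrdU than in control libraries wherever they were tested, by fold change alone. Tags of bases 5 to 22 (626 counts), 7 to 23 (611), 4 to 22 (590) and 6 to 23 (420) had log2 fold changes of 3.11, 1.94, 2.25 and 2.25 for BrdU relative to control. Those of bases 6 to 22 (172), 4 to 21 (162) and 7 to 22 (296) gave 3.11, 2.51 and 1.23, which without BrdU 3 were 1.76, 0.25 and 0.94. The tag of bases 3 to 21 (113 counts) was not tested, and that of bases 5 to 24 with a terminal A (228 counts) is described with the 3′ ends. The remaining 7 5p tags held 11 to 78 counts each, 2.97% of the arm together.

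**Figure D2:**
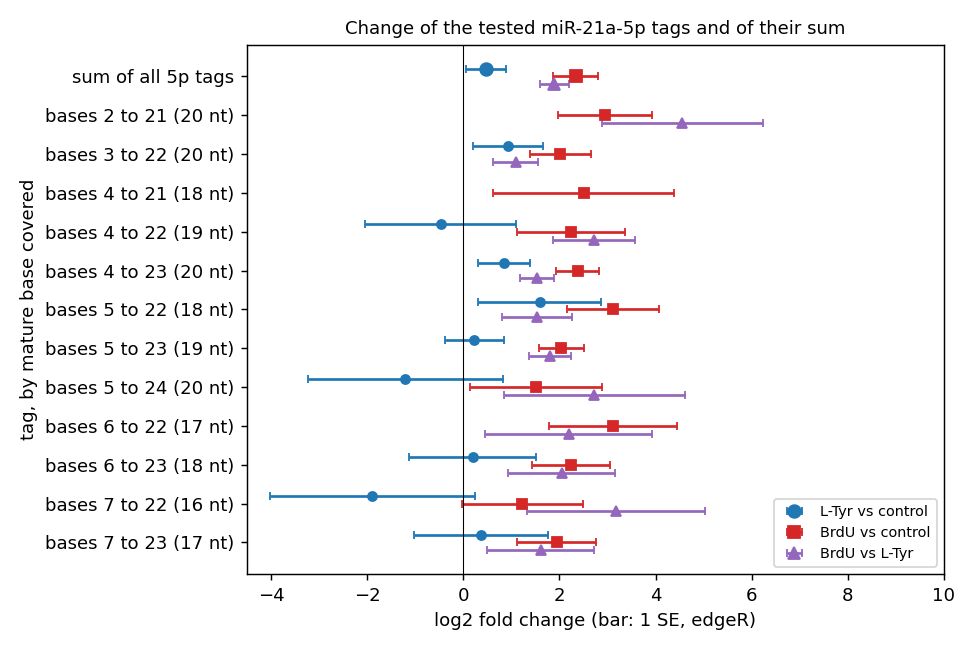
Log2 fold change of the sum of all 5p tags (top row) and of each tested miR-21a-5p tag, named by the mature bases it covers, in 3 comparisons (colours), with bars of 1 SE from edgeR. All points for BrdU relative to control (red squares, 1.23 to 3.11 for the tags) and relative to L-Tyr (purple triangles) lie above 0, and those for L-Tyr relative to control (blue circles) lie on both sides.

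For BrdU relative to L-Tyr all 11 tested tags were above 0 (median 2.05, range 1.09 to 4.56), against 52.4% of entries. Here too a tag could pass the filter through BrdU alone. An example is that of bases 2 to 21, with 0, 12 and 0 counts in L-Tyr and 20, 63 and 244 in BrdU libraries. The direction of such tags was partly set by the filter, so these numbers of tags are a description only. The number with an unadjusted p under 0.05 was 5 (7.29% of entries) and none passed adjustment with edgeR (0.162% of entries did, 0.081% higher), while DESeq2's Wald test called 1 miR-21a tag, against 41 of 3967 entries (1.03%). Without BrdU 3 all 11 were above 0 (median 1.93, range 0.89 to 3.08) and 2 had an unadjusted p under 0.05. For L-Tyr relative to control 6 of the 9 tested tags were above 0 and 3 below (45.4% of entries were above), none had an unadjusted p under 0.05 (9.63% of entries did), and edgeR called none of them (0.0796% of entries). In 2 of the 9 all L-Tyr libraries were above all control libraries, against 7.09% of entries, and for BrdU relative to L-Tyr the like count was 9 of 11, against 9.32%.

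The 3′ arm was almost absent. Its single tag had 5 counts in BrdU 3 and 0 in the other 8 libraries, which is 0.159% of the miR-21a counts of that library (95% Wilson interval 0.0681% to 0.372%, counting error only) and 0.0502% over all libraries. It is shown because its last 2 bases set it apart, printed in lower case throughout since no part of it is compared.
miR-21a-3p tag: caacagcagtcgatgggcaa
It covers bases 1 to 20 of miR-21a-3p with the substitutions T19A and G20A (hairpin base, position from the tag's 5′ end, tag base). Where the 3p count was 0, the limit that a count of 0 allows ranged from 0.0998% of the miR-21a counts in BrdU 2 to 2.10% in control 3, so that a share like that of BrdU 3 was not detectable at this depth in any of these libraries but BrdU 2. The mean 3p share was 0.0% in control and L-Tyr and 0.0531% ± 0.092 in BrdU libraries (SD, n = 3). The exact permutation p of 1.0 for each pair was fixed in advance, since only BrdU 3 had 3p counts, and does not compare the groups. Among 116 hairpins with at least 1000 counts the median share of the lesser arm was 1.31%, and 34 hairpins were below miR-21a, 32 of them at 0.

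Most of the listed miR-21a-5p counts came from tags that begin inside the mature strand. Whether reads longer than 20 nt were shortened or left out of the table is not given in the sources used here, so these shares describe the listed tags and may not describe all miR-21a-5p molecules. Over all libraries 9.63% of the counts (960) started at base 1, 3.88% at base 2, 14.5% at base 3, 29.3% at base 4, 26.9% at base 5, 6.45% at base 6 and 9.32% at base 7. Whole-seed tags, those that start at base 1 or 2, made up 13.5% (1347 counts in 5 tags). BrdU 3 alone held 1062 of these counts, and without it the share was 4.17% (285 of 6832 counts) and the share that started at base 1 was 2.08% (142 counts). The rest lacked 1 or more of the first seed bases.

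The share that started at base 1 was 9.79%, 0.855% and 0.699% in control libraries. It was 5.0%, 1.70% and 1.06% in L-Tyr libraries. In BrdU libraries it was 0.402%, 1.96% and 26.1%, the last being the highest of all 9. The counting error was small against these gaps, with 95% Wilson intervals of 24.6% to 27.7% in BrdU 3 (818 of 3133 counts) and 7.22% to 13.2% in control 1 (38 of 388 counts). BrdU 3 was thus far from BrdU 1 and 2, and control 1 was above the other controls. The group means were 3.78% ± 5.21 in control, 2.59% ± 2.12 in L-Tyr and 9.49% ± 14.4 in BrdU libraries (SD, n = 3), each SD being near or above its mean. The 99 other arms compared had at least 1000 counts and a RefSeq mature start taken by name (323 of 391 hairpins matched). Their median share of counts at base 1 was 24.3%, and 26 of them were below miR-21a-5p. Among the 26 was the arm filed under mir-93 (3.53%), which the name match scored at the start of miR-9-5p, so its share is not valid. For the 55 of the 99 with 22 nt the median was 23.5% with 14 below. Without BrdU 3 the medians were 22.7% and 19.1%, and only 6 of the 99 and 1 of the 55 were below the 2.08% of miR-21a-5p. By library the median of the 99 was between 13.0% and 27.0%, with BrdU 3 the highest and miR-21a-5p there close to it, while in the other 8 libraries miR-21a-5p was below the median of its library.

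**Figure D3:**
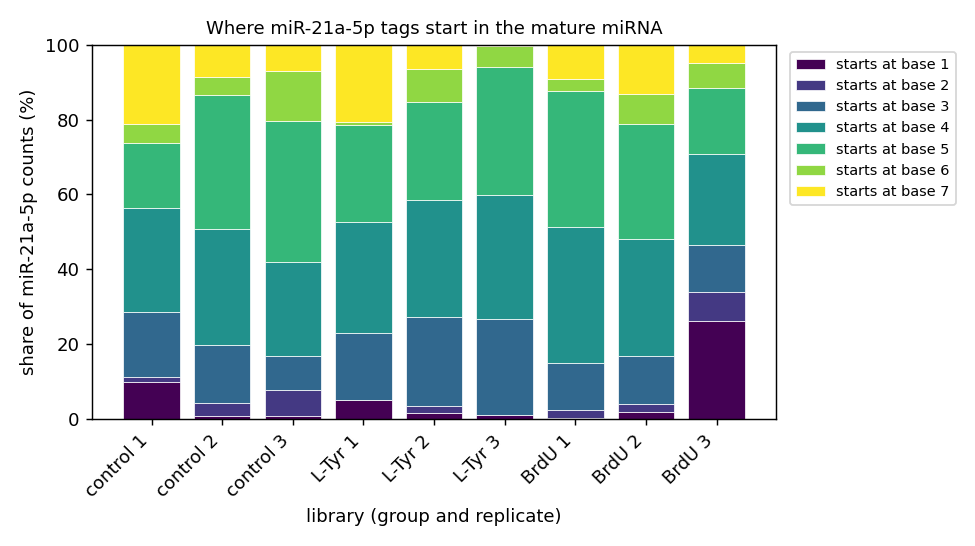
Share of miR-21a-5p counts (vertical axis, percent) by the mature base at which the tag starts (colours), in each of the 9 libraries. BrdU 3 has 26.1% of its counts at base 1, against 0.402% to 9.79% in the other libraries, and starts at bases 3 to 5 make up most of the counts in every library.

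The whole-seed share of the counts was 11.3%, 4.27% and 7.69% in control, 5.0%, 3.55% and 1.06% in L-Tyr and 2.41%, 4.06% and 33.9% in BrdU libraries, so that BrdU 1 and 2 were within the range of the other groups. Divided by seed content, the whole-seed tags stood at 206.9, 89.6 and 48.1 CPM in control, 115.3, 89.4 and 20.6 in L-Tyr and 137.8, 277.7 and 3874 in BrdU libraries. BrdU 1 lay within the control range, BrdU 2 somewhat above it and BrdU 3 far above all other libraries. The tags that lack part of the seed stood at 1618, 2006 and 577.8 CPM in control, 2192, 2430 and 1923 in L-Tyr and 5569, 6562 and 7555 in BrdU libraries. In these the BrdU libraries were close together and did not meet the other groups. All BrdU libraries were above all controls in 15.6% of arms tested, and above all L-Tyr libraries in 11.7%. The split sets apart the tags in which BrdU 3 stood out, so the closeness follows partly from it. Refitted without the whole-seed tags, an alternative chosen after seeing the data, the log2 fold change of miR-21a-5p was 2.17 (SE 0.437, adjusted p = 0.0422 by edgeR) for BrdU relative to control and 1.66 (SE 0.215, adjusted p = 0.00779) relative to L-Tyr. BrdU 3 was also the library high in miRNAs of fibroblasts, endothelium and blood, and their part in its whole-seed tags was not tested.

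**Figure D4:**
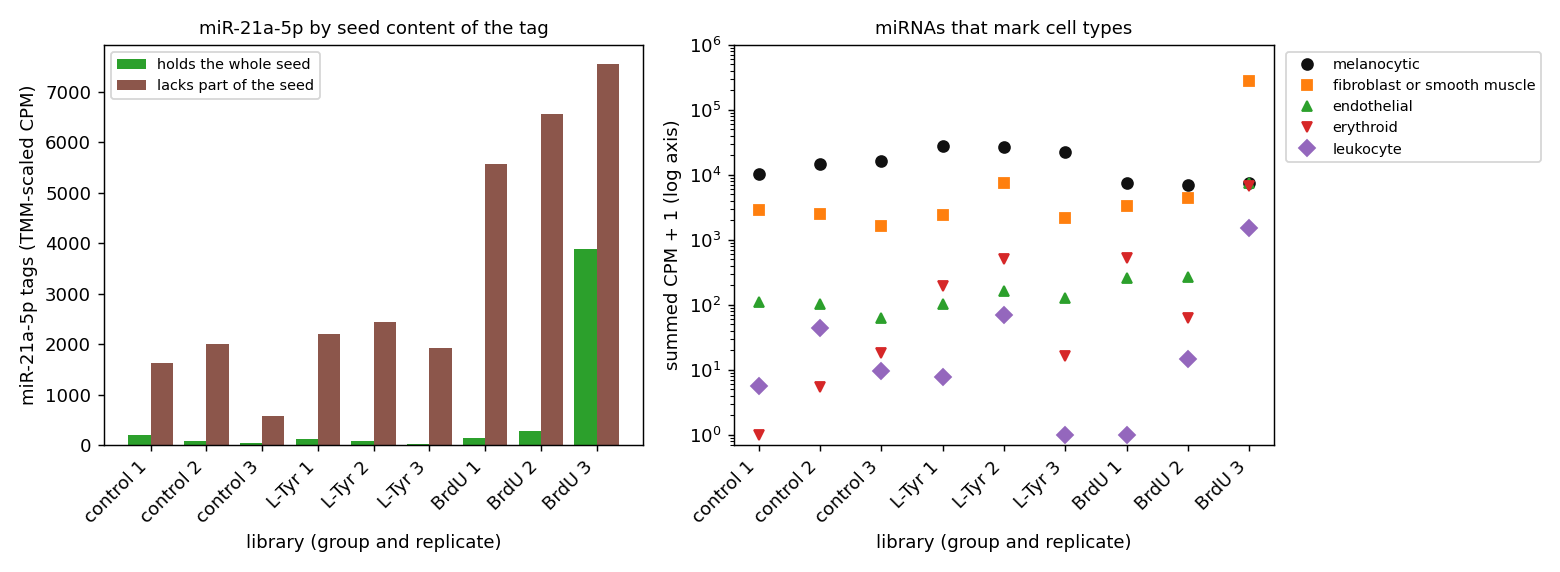
Left, miR-21a-5p in TMM-scaled CPM by library, divided into tags that hold the whole seed (green) and tags that lack part of it (brown). Right, summed CPM plus 1 (log axis) of miRNAs that mark 5 cell types, where BrdU 3 alone has 274251 CPM of the fibroblast or smooth muscle list and also the highest endothelial, erythroid and leukocyte sums.

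At the other end of the strand, 16.4% of the counts (1633) stopped before base 22, 30.1% (3004) stopped at base 22 and 50.0% (4985) ended 1 base later with a C that is also the next base of the hairpin. A further 0.221% (22) went on to base 24 as in the hairpin, and 3.22% (321) reached base 24 with a last base that the hairpin does not have. BrdU 3 held 1236 of the 1633 early stops, and without it 5.81% (397 of 6832 counts) stopped before base 22, 30.0% stopped there and 60.0% ended 1 base later. The tags that go past base 22 are shown with the later bases in capitals, because they alone reach beyond the mature end. Where a later base is also in the hairpin, the tag does not show whether it was added or cut from the hairpin.
bases 4 to 23: cttatcagactgatgttgaC
bases 5 to 23: ttatcagactgatgttgaC
bases 6 to 23: tatcagactgatgttgaC
bases 7 to 23: atcagactgatgttgaC
bases 5 to 24 with A: ttatcagactgatgttgaCA
bases 5 to 24 with C: ttatcagactgatgttgaCC
bases 6 to 24 with A: tatcagactgatgttgaCA
bases 7 to 24 as in the hairpin: atcagactgatgttgaCT
The last base of the A forms differs from the hairpin as T20A in the 20-nt tag and T19A in the 19-nt tag, and that of the C form as T20C (hairpin base, position from the 5′ end of the tag, tag base). Since tags ended at 20 nt, a tag that starts at base 1 or 2 cannot show the mature 3′ end, so shares of ends and of starts are tied to each other.

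The share that went past base 22 was 54.9%, 56.1% and 76.9% in control, 63.8%, 56.9% and 57.9% in L-Tyr and 72.4%, 66.9% and 30.1% in BrdU libraries, the groups overlapping. BrdU 3 was the lowest, with 39.5% of its counts stopping before base 22 (95% Wilson interval 37.8% to 41.2%) against 2.41% to 12.4% elsewhere. The share with a last base that is not in the hairpin was 4.64%, 5.13% and 2.10% in control, 0.0%, 6.33% and 0.0% in L-Tyr and 3.52%, 4.03% and 1.76% in BrdU libraries. These ranges overlapped too, and the tag of bases 5 to 24 with A had 12, 47 and 0, then 0, 19 and 0, then 20, 78 and 52 counts. Its log2 fold change was 1.52 (SE 1.37) for BrdU relative to control (adjusted p = 0.809 by edgeR), and its SE was nearly as large as the change.

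**Figure D5:**
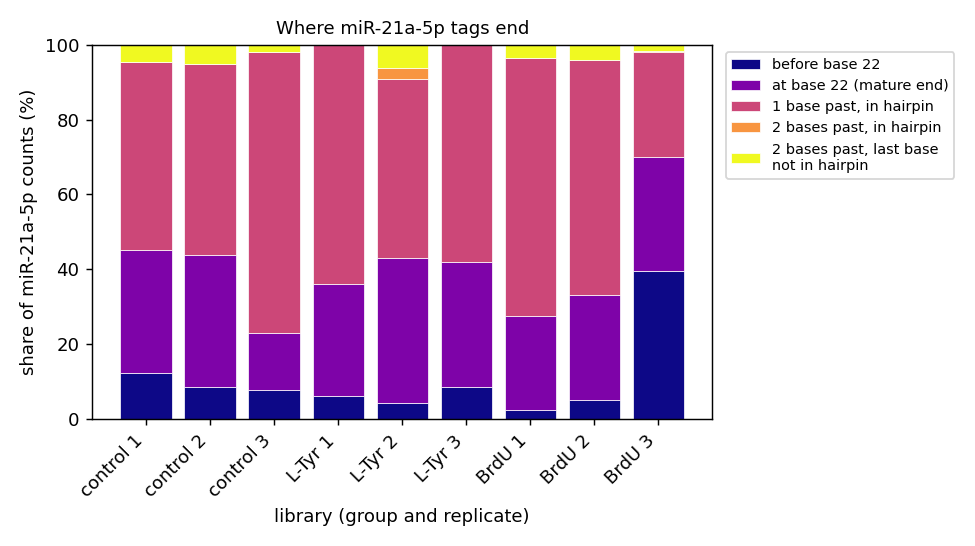
Share of miR-21a-5p counts (vertical axis, percent) by where the tag ends relative to base 22, the mature end, in each library (colours). Ends 1 base past the mature end are the largest class in 8 libraries, and BrdU 3 has 39.5% of its counts ending before base 22.

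By length, 49.5% of the 5p counts were in tags of 20 nt, 26.3% in 19 nt, 13.2% in 18 nt, 8.02% in 17 nt and 2.97% in 16 nt. The 20-nt share was 43.6%, 42.9% and 42.0% in control, 42.9%, 58.6% and 49.5% in L-Tyr and 50.3%, 44.0% and 56.5% in BrdU libraries. The control libraries were the closest together. The group means were 42.8% ± 0.807, 50.4% ± 7.89 and 50.2% ± 6.25 (SD, n = 3), and the difference of BrdU minus control was 7.42 percentage points (exact permutation p = 0.1, adjusted 0.9 over 12 tests of shares and lengths). The mean tag length was 18.99 nt ± 0.163 in control, 19.13 ± 0.265 in L-Tyr and 19.14 ± 0.123 in BrdU libraries (SD, n = 3). The largest difference of a pair was 0.156 nt, BrdU minus control, which lies between the BrdU and the control SD (exact permutation p = 0.3 to 1.0 over the pairs). The share of the most used start, base 4, was 28.0% ± 2.85, 31.4% ± 1.68 and 30.6% ± 6.15 (exact permutation p = 0.2 to 0.8). All 12 tests had an adjusted p of 0.9 or 1.0, and the smallest p that the design allows is 0.1. Those of the 3p share among them could give no other value.

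The 5 arms whose level was most like that of miR-21a-5p were found by Pearson's r of log2 CPM over the 9 libraries, among 133 arms with a mean of at least 100 counts, as a description without a test. They were mir-335-3p (0.937), mir-26a-2-5p (0.868), mir-24-2-3p (0.837), mir-26a-1-5p (0.831) and mir-542-3p (0.824). Over the 8 libraries without BrdU 3 the same arms had r of 0.941, 0.818, 0.760, 0.731 and 0.707. The libraries share depth and group, which enters these values. mir-335-3p stood at 113, 91.8 and 0.0 CPM in control, 109, 27.2 and 77.1 in L-Tyr and 1309, 1830 and 1434 in BrdU libraries, and its log2 fold change for BrdU was 4.42 relative to control (SE 1.13, adjusted p = 0.0784 by edgeR, not called) and 4.49 relative to L-Tyr (SE 0.657, adjusted p = 0.0118). Both mir-26a hairpins give the same mature 5p sequence, so that their tags may share reads.

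Beside miR-21a, other miRNAs linked to tumours were followed as a list of 14 hairpins (mir-17 cluster members, mir-221, mir-222, mir-155, mir-10b, mir-182 and mir-210), which had 23 arms in the table. Of the 11, 13 and 11 arms tested for L-Tyr relative to control, BrdU relative to control and BrdU relative to L-Tyr, none was called by edgeR in any comparison, against 2.65%, 3.11% and 2.34% of all arms. An unadjusted p under 0.05 was reached by 1, 0 and 1 of them, against 14.8%, 19.0% and 12.5% of all arms. Their median log2 fold changes were -0.41, -0.37 and 0.19, against -0.13, -0.09 and 0.09 for all arms tested. The most abundant were mir-92a-1-3p, at 30838 ± 7215, 30035 ± 6550 and 25510 ± 7602 CPM in control, L-Tyr and BrdU libraries, and mir-10b-5p, at 10208 ± 880.9, 15154 ± 1203 and 10142 ± 295.9 CPM (SD, n = 3). The lowest was mir-19a-5p with 0.556 counts a library, followed by mir-20a-3p and mir-222-5p, tied at 0.889, and none of these was tested. The list tied to inflammation and senescence (13 hairpins with 21 arms, among them mir-146a, mir-34a, the mir-29 family and mir-24) gave medians of 0.05, 0.41 and 0.36 over 8, 9 and 11 tested arms, against -0.13, -0.09 and 0.09 for all arms. An unadjusted p under 0.05 was reached by 1, 1 and 1 of them, against 14.8%, 19.0% and 12.5% of all arms. For BrdU relative to control 1 of the 9 tested arms was called, against 3.11% of all arms, and none in the other comparisons, against 2.65% and 2.34%. It was mir-22-3p, higher after BrdU with a log2 fold change of 1.31 (SE 0.219, adjusted p = 0.0265 by edgeR). The most abundant arms of this list were mir-24-2-3p, at 22057 ± 1828, 24736 ± 3664 and 30182 ± 1764 CPM in the same order of groups, and mir-24-1-3p, whose mature sequence is the same and whose tags may share reads with it. The lowest were mir-146b-3p and mir-155-5p, at 1.44 and 1.22 counts a library on average, and neither was tested.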

How the data were processed

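Small RNA from 9 cultures of B16F1 cells was sequenced by the authors in single reads. Raw counts per sequence tag or miRNA name, as deposited by the authors, were used for all values given here. The paper states that they were produced in BaseSpace (Small RNA app, version 1.0) from reads 17 to 35 nt long. By its account these were aligned to mm9 and named from miRBase 21 at 100% identity. The table itself held tags of 13 to 20 nt, and some miR-21a tags ended in bases that are not in the hairpin. The authors' normalized counts and their DESeq2 comparison tables, which hold mean counts, log2 fold changes with errors and p-values, were not used.

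Tags whose row began with a start below 35 were taken as the 5p arm and the others as the 3p arm. Counts were summed by hairpin arm, and arm sums and single entries were fitted apart. Each comparison used its 6 libraries, TMM factors, edgeR's filterByExpr, the quasi-likelihood test and Benjamini-Hochberg adjustment over all features, with calls at an adjusted p under 0.05 (R 4.3.3, edgeR 4.0.16, limma 3.58.1). CPM values use TMM-scaled library sizes over all 9 libraries. Shares and mean lengths were compared with two-sided exact permutation tests in Python 3.11.15 (scipy 1.17.1, numpy 2.4.6, pandas 2.3.3, matplotlib 3.10.9). Tags and RefSeq sequences were matched exactly to NCBIM37 and its GENCODE annotation (release M1). The fits were first tested on simulated data, in which some features were changed by known folds. For BrdU relative to control, 68.4%, 31.8% and 0% of arm sums changed by a log2 fold of 3, 2 and 1 were called. For entries these were 40%, 15.3% and 0%. A feature that was not called may therefore still differ. Of the simulated arms called, 20 of 20 for BrdU and 32 of 37 for L-Tyr, each relative to control, had been changed.

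The tags named are those with at least 1% of the counts of their arm, and the most alike arms are the 5 with the highest Pearson correlation over the 9 libraries. Of the miRNA lists the 2 arms with the highest and the 2 with the lowest mean count are named, with those called. The members and lists were chosen with earlier results of these data known. The alternatives were DESeq2's size factors, total count scaling, library sizes without mir-3963 and mir-143, no low-count filter, a minimum mean count of 50, 1 fit over the 9 libraries, the replicate number as a block, DESeq2's Wald test (version 1.42.0), each library left out, tags exactly in the hairpin, sequences listed under 1 hairpin, tags of at least 10 counts or 17 nt for the shares, and, chosen after seeing the data, no whole-seed tags and the pooled shares, correlations and single tags without BrdU 3. PCR reads carry no molecular identifiers, so limits from counts cover counting error only.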

Additional observations from a re-analysis of the deposited data

Results flagged for a closer look

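The response of miR-21a-5p differed between the exposures: BrdU relative to L-Tyr gave a log2 fold change of 1.90 (SE 0.302, adjusted p = 0.0156 by edgeR's quasi-likelihood test). This fit is a direct test of the difference between the exposures, against 3 of 256 arms called higher (1.17%). All 3 BrdU libraries were above all 3 L-Tyr libraries, as for 11.7% of arms, with an exact permutation p of 0.1. The call was kept in 11 of 17 alternatives.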

How the results depend on the processing

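For miR-21a-5p, BrdU relative to control kept its direction under all 17 alternatives, but edgeR's adjusted p was above 0.05 with total count scaling (log2 fold change 2.22, adjusted p = 0.0774), a mean count of at least 50 (2.33, 0.0515) and only sequences under 1 hairpin (2.33, 0.0807). Leaving out 1 library gave 2.01 to 2.70 (adjusted p 0.0385 to 0.189), and the call was lost without control 1, control 2, BrdU 2 or BrdU 3. BrdU relative to L-Tyr also kept its direction, but was not called in the fit of all 9 libraries (1.82, adjusted p = 0.0937) nor without any single L-Tyr library or BrdU 2 (1.50 to 2.12 over the libraries left out, adjusted p 0.0188 to 0.206). L-Tyr relative to control was never called (0.09 to 0.77 with 1 library left out). The causes were not tested.

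With the replicate number as a block, the log2 fold change of miR-21a-5p was 2.42 for BrdU relative to control (edgeR's adjusted p = 0.174) and 1.83 relative to L-Tyr (0.135), and called arms went from 7, 9 and 6 to 1, 1 and 0. Correlations of same-numbered libraries were weak, at -0.113 to 0.0553 by arm sums and -0.0223 to 0.128 by single entries. By arm sums 0 of 9 libraries correlated best with their own number, and by single entries 3 of 9 did. These values do not settle whether the numbers pair the samples.

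The most abundant tag, BrdU relative to control, passed the threshold with no filter (2.38, adjusted p = 0.000355), all 9 libraries (2.38, 0.0399) and DESeq2's Wald test (2.41, 0.00552). The number of called tags for BrdU relative to control was 4 with no filter (1.99% of all entries called), 1 with all 9 libraries (0.19%), 3 with DESeq2 (0.883%) and 0.0 to 1.0 with 1 library left out (1 without BrdU 1, 0.733%), and relative to L-Tyr it was 1 with no filter (1.16%) and 1 with DESeq2 (1.03%). The BrdU difference in 3p share was 0.0 with tags of at least 10 counts and 0.0 to 0.0797 points with 1 library left out, since its counts lie in BrdU 3. The base 4 share of BrdU minus control ranged from -0.27 to 5.85 points with 1 library left out and minus L-Tyr from -3.68 to 2.45. The 20-nt share of BrdU minus L-Tyr was 0.728 points with tags of at least 17 nt and -3.81 to 4.04 with 1 library left out, and the mean length differed by -0.140 to 0.09999 nt. Without the filter the miR-21a-3p fit rests on 5 counts and is not given. Total count scaling moved the median of all arms for L-Tyr relative to control from -0.13 to 0.07 and for BrdU relative to L-Tyr from 0.09 to -0.12.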
